A study of Mus musculus with 36 samples.

Results

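The genes described here encode the proteins of the cytosolic ribosome in cultured mouse lung endothelial cells (ECs). They were taken by symbol: every gene of the mRNA count table named as an Rpl or Rps protein, as Rplp0, Rplp1 or Rplp2, or as Rpsa, with symbols marked as pseudogenes left out. This gave 88 members among 51826 genes. The members comprised 52 large subunit and 36 small subunit symbols, and 5 of them (Rpl6l, Rps12l1, Rps3a2, Rps3a3 and Rps4l) are annotated as processed pseudogenes despite their plain names. Poly(A) RNA had been sequenced from ECs of 3 genotypes with 3 libraries each. LA-Tg ECs carried Cdh5TA with the TetOp-LA minigene (human wildtype lamin A), and Prog-Tg ECs carried Cdh5TA with the TetOp-LAG608G minigene, which yields both human lamin A and the mutant progerin of Hutchinson-Gilford progeria. In both lines the trans-activator is expressed from the VE-cadherin (Cdh5) promoter, and WT ECs came from littermates labelled wild-type. All cells came from lungs of mice aged 10 to 15 days, were sorted with ICAM-2 beads and were harvested at passage 3. The libraries are a model of young endothelium grown in culture, and neither the labels nor the methods say whether a library pools animals.

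Each cytosolic ribosome holds one copy of nearly every ribosomal protein, and a growing cell spends much of its transcription and translation on making them. Their mRNAs typically begin with a run of pyrimidines at the cap, the 5′ terminal oligopyrimidine (TOP) tract, through which mTOR signaling and the RNA-binding protein Larp1 control their translation. Ribosomal proteins that are not built into ribosomes can signal: Rpl5 and Rpl11, together with 5S rRNA, bind Mdm2 and stabilize p53, a route linked to senescence. Ribosomal protein genes have also left many processed pseudogenes in mammalian genomes, which matters for reading their counts.

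TOP tracts were looked for as an uninterrupted run of at least 5 pyrimidines that begins with C and within 2 bases of an annotated start. Of the 88 members, 63 had a start in the RefSeq promoter table (GRCm38.p6), and 21 of these (33.3%) had such a run against 10.6% of 27025 genes of that table. Several members named below had a shorter run or none: 4 bases at Rpl31, 1 at Rpl10a, Rpl5 and Rps15 and 0 at Rpl4. The following starts are examples picked for having a run, from members named below, among them Rps6, the target of S6 kinase. Each covers 10 bases before to 20 after the annotated start, with the run in capitals.
Rps6 (chr4:86857348-86857377, minus strand): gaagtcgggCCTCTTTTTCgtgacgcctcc
Rpl13a (chr7:45128726-45128755, minus strand): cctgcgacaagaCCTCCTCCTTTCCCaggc
Rpl34 (chr3:130730379-130730408, minus strand): tccctgacgtaCTTCCTgtccggcgccgtc
Rpl35a (chr16:33056472-33056501, plus strand): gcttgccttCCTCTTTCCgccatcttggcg
Rpl38 (chr11:114668570-114668599, plus strand): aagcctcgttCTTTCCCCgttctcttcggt
Rps27 (chr3:90213629-90213658, minus strand): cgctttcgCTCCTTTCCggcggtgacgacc
Rps27l (chr9:66946076-66946105, plus strand): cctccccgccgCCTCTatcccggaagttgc
The run of Rpl13a was 14 bases long, that of Rps6 was 10 and that of Rps27 was 9, whereas Rps27l had 5. A start without such a run says only that these letters are not within the window around the annotated start.

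Library totals were 17961152 to 67602012 counts, and 14584 genes passed the filter on low counts and were tested. Pan-endothelial markers were tested in 12 of 12 cases and summed to 7796 to 12769 CPM per library. Epithelial markers summed to at most 12.6 CPM and immune markers to at most 51.3 CPM, whereas fibroblast markers reached 845 CPM in Prog-Tg replicate 3 and pericyte and smooth muscle markers 408 CPM in LA-Tg replicate 3. Of the 8 epithelial markers, 1 was at 0 in all libraries. Lymphatic endothelial markers summed to 5168 to 8831 CPM in the WT libraries, 1472 to 9359 CPM in the LA-Tg libraries and 1674 to 5294 CPM in the Prog-Tg libraries, and 7 of 7 tested had a log2 fold change below 0 in Prog-Tg versus WT. In the same comparison 8 of 12 pan-endothelial markers were below 0 (median -0.25). Of the 7 tested pericyte and smooth muscle markers, 6 were above 0 (median 0.75). In LA-Tg versus WT 7 of 12 pan-endothelial and 7 of 7 pericyte and smooth muscle markers were above 0 (medians 0.06 and 1.80). Of these 2 lists, 0 genes had an edgeR unadjusted p under 0.05 in either comparison. Of the 7 tested lymphatic markers, 2 (28.6%, against 2.17% of all genes) were lower at that limit in Prog-Tg versus WT. Their median log2 fold change was -1.76, and groups did not overlap for 3 (42.9%, background 7.17%), all lower. In LA-Tg versus WT the lymphatic median was -0.52, with 0 at that limit. CPM throughout are counts scaled to library size after TMM normalization.

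The members took about 1 in 100 counts of every library. Of all counts, WT replicates 1 to 3 had 1.05%, 1.03% and 0.761% in these genes, LA-Tg replicates 1.08%, 0.882% and 1.21%, and Prog-Tg replicates 1.01%, 1.04% and 0.897%. The 95% Wilson intervals for counting error alone were narrow, for instance 0.757% to 0.765% in WT replicate 3. The group means were 0.946% ± 0.161 (SD, n = 3) for WT, 1.06% ± 0.166 for LA-Tg and 0.98% ± 0.0735 for Prog-Tg, so that the ranges of the 3 genotypes overlapped and the means differed by less than the SD of WT or LA-Tg. Large subunit members held 0.403% to 0.628% of the counts of a library and small subunit members 0.358% to 0.583%. In bulk RNA a lower share of these transcripts per cell cannot be told apart from fewer cells that hold many of them.

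**Figure D1:**
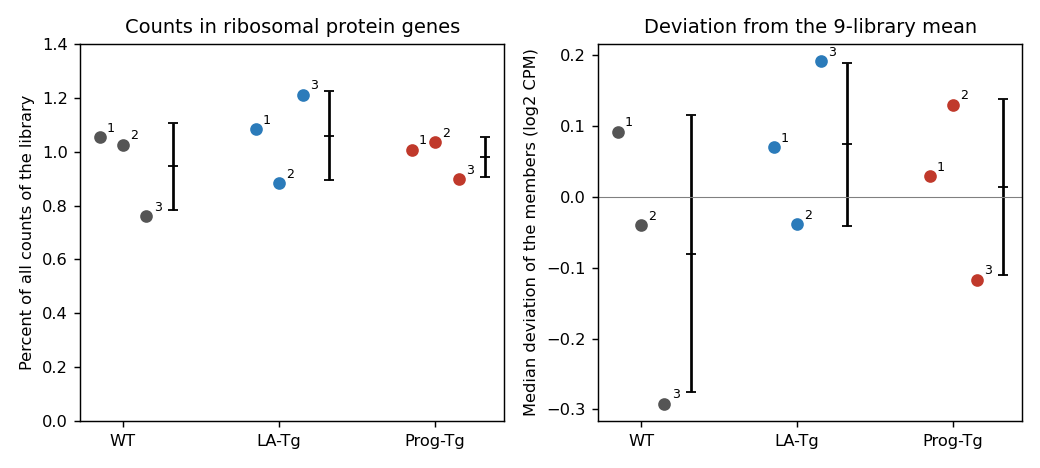
Left, percent of all counts of each library that fell in the 88 ribosomal protein genes; right, median over the 80 tested members of log2 CPM minus each member's mean of 9 libraries. Points are libraries with their replicate number, and bars are mean and SD (n = 3): WT replicate 3 was the lowest in both panels (0.761% and -0.29), and the genotypes overlapped.

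The libraries of one genotype differed more than the genotypes did. Relative to its mean over the 9 libraries, the median member stood at 0.09, -0.04 and -0.29 on the log2 scale for replicates 1 to 3 of WT, at 0.07, -0.04 and 0.19 for those of LA-Tg and at 0.03, 0.13 and -0.12 for those of Prog-Tg. Of the 80 tested members, 41 had their lowest value in WT replicate 3 and 28 their highest in LA-Tg replicate 3. In WT replicate 3 only 14 of the 80 members lay above their own mean, against 64 in WT replicate 1. The library that was low for the ribosomal proteins also had the lowest share of mitochondrially encoded transcripts (1.94% of counts, against 2.22% to 4.6% in the others). With these transcripts left out of the totals, the members held 0.776% of its counts, against 0.917% to 1.24% in the others. Any further part of these transcripts in the result was not tested. Over all 14584 genes the median deviation of WT replicate 3 was 0.02. TMM scaling holds that median near 0 in every library, so it cannot show whether the low value was particular to the members.

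The members varied less within a genotype than genes of all levels together, and about as much as other highly counted genes. The median within-genotype SD was 0.24 on the log2 scale for the members and 0.36 for all genes. Among genes with over 50 CPM, where 44 members lay, the medians were 0.24 and 0.25. Between 5 and 50 CPM they were 0.24 for 23 members and 0.30 for 5903 genes. Among genes under 5 CPM it was 0.22 for 13 members and 0.69 for 4126 genes. The members tended to move together within a genotype: the median correlation between a pair of members, over 9 deviations from the genotype means, was 0.30, and 69.5% of pairs were above 0. These pairs share libraries and scaling, and the value is a description only. It was not computed for other genes, so it cannot show whether the members differ from them in this.

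**Figure D2:**
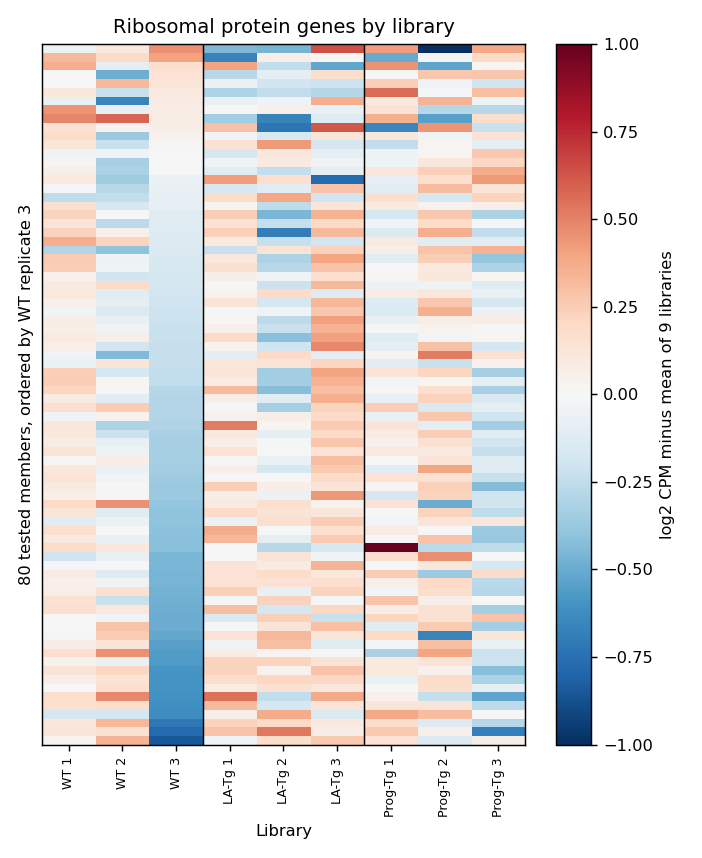
Log2 CPM of the 80 tested ribosomal protein genes (rows, ordered by WT replicate 3 and drawn without symbols) in the 9 libraries (columns, by genotype and replicate), each minus its mean over 9 libraries; the color scale ends at 1 in either direction. WT replicate 3 was the lowest library for 41 of the 80 rows, while no genotype formed a uniform block.

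Although ribosomal proteins are needed in similar numbers, the counted levels of their mRNAs spanned about 3 orders of magnitude. Per kb of exon, the highest members were Rplp1, a protein of the stalk that recruits translation factors, at 862 CPM per kb, Rpl4, which lines the exit tunnel, at 494, and Rps15 of the small subunit head at 425. The lowest of the tested members were Rpl38, whose loss alters the translation of Hox mRNAs in mice, at 0.943 CPM per kb, Rpl23a, which sits at the tunnel exit, at 0.998, and Rpl24, mutated in the mouse line Belly spot and tail, at 1.1. A few genes held most of the counts: 5 members accounted for 35% and 20 members for 72.5% of all counts in ribosomal protein genes.

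The counted levels tended to be lower for genes with a smaller share of their coding sequence found nowhere else in the genome. The coding sequence of each protein-coding member was divided into every overlapping 50-base window, and each window was searched for exact matches on either strand of the 22 assembled GRCm38.p6 chromosome sequences outside the gene. Across the 83 protein-coding members, the share of windows found nowhere else and the CPM per kb had a Spearman rho of 0.65, a description over genes that share libraries. The 27 members with no such window had a median of 3.55 CPM per kb, with Rps28 highest at 51.2, and held 4.09% of the members' counts. The 41 members with up to 50% of their windows unique had a median of 43.5 CPM per kb, and the 15 with over 50% had 121. Read length and the treatment of reads with several equal matches are not given in the sources used here, and the part of such reads in the levels was not tested.

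**Figure D3:**
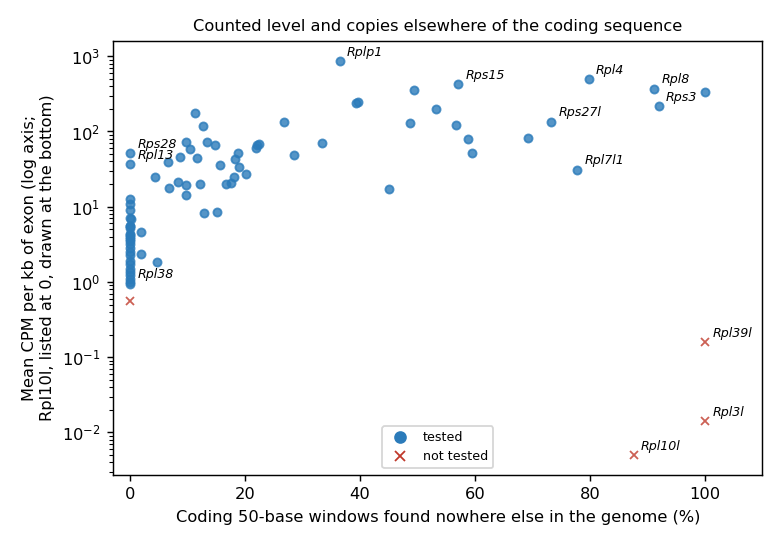
Mean CPM per kb of exon over 9 libraries (log axis) against the percentage of coding 50-base windows found nowhere else in the genome, for 83 protein-coding ribosomal protein genes; circles were tested and crosses were not. Members with no unique window had a median of 3.55 CPM per kb and those with over 50% unique a median of 121, and the paralogs Rpl3l, Rpl10l and Rpl39l lay below 1 although their sequences are mostly unique.

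The middle 50 coding bases of 4 members are shown, with no base marked. They were chosen for their high or low levels, so they are examples and no measure of the relation.
Rpl4 (chromosome 9, coding bases 606 to 655 of 1260): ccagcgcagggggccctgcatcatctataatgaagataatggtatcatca
Rps6 (chromosome 4, coding bases 351 to 400 of 750): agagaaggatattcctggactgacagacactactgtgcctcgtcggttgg
Rpl23a (chromosome 11, coding bases 211 to 260 of 471): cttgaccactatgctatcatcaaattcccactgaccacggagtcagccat
Rpl38 (chromosome 11, coding bases 82 to 131 of 213): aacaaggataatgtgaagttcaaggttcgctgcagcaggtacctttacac
Outside their own genes the window of Rpl4 had 0 exact copies, that of Rps6 had 1, that of Rpl23a had 2 and that of Rpl38 had 3. Rpl4 stood at 990 CPM on average, while Rps6, Rpl23a and Rpl38 stood at 1.94, 0.845 and 0.511 CPM. Other members went the other way: the middle window of Rpl13 had 6 copies elsewhere and that of Rpl7 had 1, and they stood at 95.5 and 181 CPM. Rows whose symbols mark them as pseudogenes of these genes received few counts. Copies that carry no such symbol are not among them. Rpl11, for instance, had 0 such rows, although a coding window of it had up to 6 copies elsewhere. The 276 rows with such symbols summed to 879 to 3590 counts per library, against 148429 to 606393 in the members. The largest of these sums belonged to Rpl14 (4367 counts in 1 row over all libraries, against 26964 in the gene) and to Rps13 (3074 counts in 7 rows, against 1559 in the gene).

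In Prog-Tg versus WT ECs, the comparison of the progeria model with its littermates, no ribosomal protein mRNA passed the adjusted test. The median log2 fold change of the 80 tested members was 0.09 (-0.01 over all genes), with 53 members above and 27 below 0, and single members ranged from -0.41 to 0.55. With edgeR, 0 of 80 members and 0% of the 14584 genes tested had an adjusted p under 0.05, and the same count of members was 0 with DESeq2 and with limma-voom. At an unadjusted p under 0.05, 2 members were higher (2.5%, against 1.23% of all genes) and 0 were lower (2.17% of all genes). DESeq2 gave 4 and limma-voom 2 members at that limit. The groups did not overlap for 7 members that were higher (8.75%, background 6.56%) and for 0 that were lower (background 7.17%). Large subunit members had a median of 0.11 and small subunit members of 0.01.

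The precision of these comparisons can be read from the intervals. The median half-width of a member's 95% interval was 0.48 on the log2 scale, and for 72 of 80 members the interval lay within a 2-fold change in either direction. For 34 it lay within a 1.5-fold change in either direction. Leaving out WT replicate 3, the lowest library, moved the median of the members from 0.09 to -0.02 and the count at an unadjusted p under 0.05 from 2 to 0. The count was also 0 without Prog-Tg replicate 2 and 1 without any of WT replicate 1, WT replicate 2, LA-Tg replicate 1 and Prog-Tg replicate 1.

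The 5 members with the smallest p in Prog-Tg versus WT were Rps27l, Rpl31, Rpl10a, Rpl17 and Rpl5, and all of them had their higher mean in Prog-Tg. Rps27l (chr9:66946086-66949516, plus strand, GRCm38) is a paralog of Rps27 and a known p53 target. It stood at 106, 79.7 and 92.4 CPM for WT, at 101, 124 and 102 for LA-Tg and at 111, 156 and 121 for Prog-Tg. The 3 Prog-Tg libraries all lay above the 3 WT libraries. The log2 fold change was 0.48 (standard error 0.174, edgeR unadjusted p = 0.0244, adjusted p = 0.83) and ranged from 0.32 to 0.58 when single libraries were left out. The group levels were 92.7 ± 13.2 CPM (SD, n = 3) for WT, 109 ± 12.9 for LA-Tg and 129 ± 23.6 for Prog-Tg.

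Rpl31 (chr1:39367842-39371911, plus strand), a large subunit protein near the tunnel exit, stood at 11.9, 13 and 9.91 CPM for WT and at 15.3, 18.9 and 13.7 for Prog-Tg, with no overlap (log2 fold change 0.46, standard error 0.187, edgeR unadjusted p = 0.0377, adjusted p = 0.83). The LA-Tg libraries, at 13.6, 14.9 and 13.2 CPM, lay above all WT libraries and overlapped Prog-Tg. Rpl10a (chr17:28328471-28331033, plus strand), which is carried by a subset of ribosomes in mouse cells, stood at 22.7, 17.6 and 21.7 CPM for WT, 20.2, 18.4 and 20.4 for LA-Tg and 23.7, 25.9 and 28.4 for Prog-Tg. Every Prog-Tg library exceeded the 6 others. Its log2 fold change was 0.33 (standard error 0.151) in Prog-Tg versus WT. Rpl17, at the tunnel exit, was low, at 4.55 ± 0.778 CPM for WT and 6.69 ± 0.944 for Prog-Tg (0.55 on the log2 scale, standard error 0.255).

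Rpl5, which carries 5S rRNA into the large subunit and binds Mdm2 outside it, stood at 20.1, 19.5 and 14.2 CPM for WT and at 23.2, 22.3 and 24.4 for Prog-Tg (log2 fold change 0.38, standard error 0.19). The groups did not overlap, while the LA-Tg libraries at 18.1, 23.6 and 17.2 CPM spanned most of both. The share of coding windows found nowhere else was 12.9% for Rpl31 and 0% for Rpl10a, Rpl17 and Rpl5, against 73.2% for Rps27l, and the part of reads from other copies in these values was not tested.

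**Figure D4:**
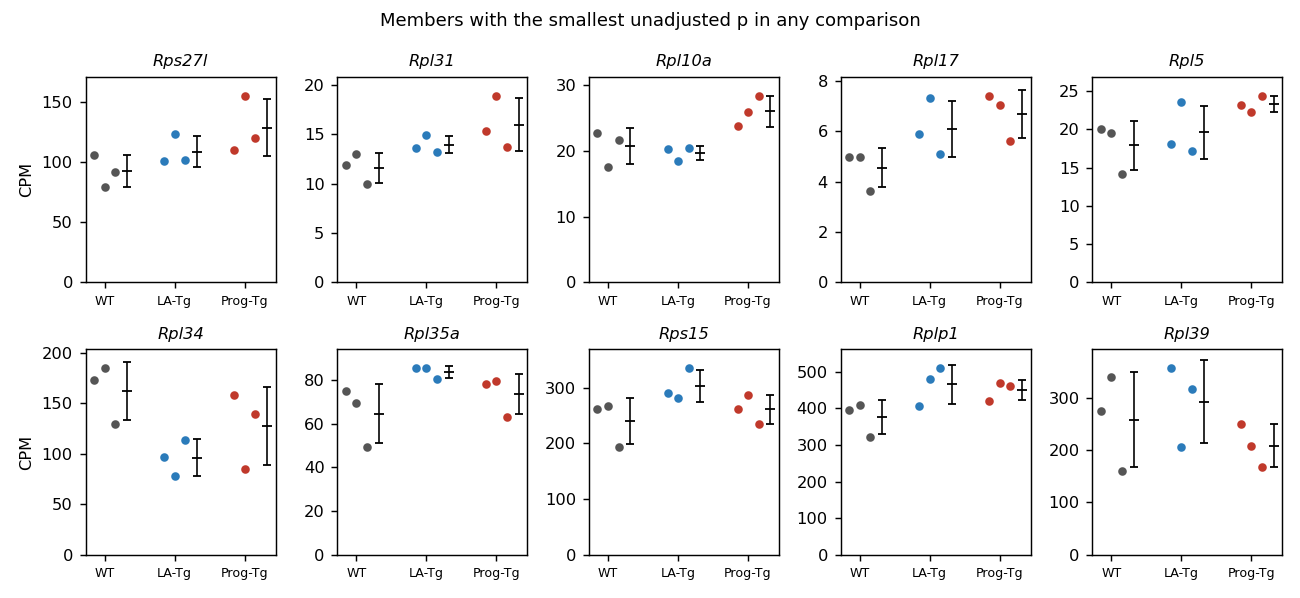
CPM (linear axes from 0) of 10 members that had one of the 5 smallest unadjusted p values in any comparison; points are libraries, bars are mean and SD (n = 3). Rps27l, Rpl31, Rpl10a, Rpl17 and Rpl5 had all 3 Prog-Tg libraries above all 3 WT libraries, and Rpl34 had all 3 LA-Tg libraries below all 3 WT libraries.

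Rps27 and Rps27l show how distinct such paralogs can be at the base level. Over 255 aligned coding bases, 194 were identical (76.1%), and the longest identical run was 11 bases. Bases that differ are in capitals.
Rps27: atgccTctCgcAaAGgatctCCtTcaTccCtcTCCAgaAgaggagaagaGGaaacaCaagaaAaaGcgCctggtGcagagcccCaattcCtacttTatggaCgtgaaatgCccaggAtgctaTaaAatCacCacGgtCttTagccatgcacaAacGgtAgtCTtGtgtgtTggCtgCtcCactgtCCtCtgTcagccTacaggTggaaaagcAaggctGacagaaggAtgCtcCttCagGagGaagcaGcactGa
Rps27l: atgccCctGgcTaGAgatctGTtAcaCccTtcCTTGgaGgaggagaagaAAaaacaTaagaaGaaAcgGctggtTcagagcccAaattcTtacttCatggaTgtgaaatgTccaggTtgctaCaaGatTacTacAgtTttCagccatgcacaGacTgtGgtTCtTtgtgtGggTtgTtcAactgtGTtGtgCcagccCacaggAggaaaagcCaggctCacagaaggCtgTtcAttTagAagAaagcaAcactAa
Rps27 had 0% of its coding windows unique and stood at 3.21 ± 0.394 CPM for WT, 3.64 ± 0.758 for LA-Tg and 3.04 ± 0.291 for Prog-Tg. The 3 groups overlapped, and its higher counted paralog Rps27l was the member of the pair with separate WT and Prog-Tg values.

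In LA-Tg versus WT ECs, which share the same WT libraries, the members had a median log2 fold change of 0.17 (-0.01 over all genes), with 64 of 80 above 0. edgeR called 0 members and 0% of all genes at an adjusted p under 0.05, and DESeq2 and limma-voom also called 0 members. At an unadjusted p under 0.05, 0 members were higher (background 0.405%) and 1 was lower (1.25%, background 0.425%). DESeq2 gave 2 and limma-voom 1 at that limit, and the count was 3 without WT replicate 1 and 0 without WT replicate 2. Groups did not overlap for 8 higher members (10%, background 1.92%) and for 4 lower members (5%, background 2.03%). Leaving out WT replicate 3 lowered the median to 0.05, and leaving out LA-Tg replicate 3, the highest library, lowered it to 0.09.

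Rpl34 (chr3:130726831-130730398, minus strand), a large subunit protein, was the member with the smallest p in LA-Tg versus WT. It stood at 173, 185 and 130 CPM for WT, at 96.8, 77.7 and 114 for LA-Tg and at 158, 84.6 and 140 for Prog-Tg. All LA-Tg libraries lay below all WT libraries, and Prog-Tg replicate 2 lay with the LA-Tg values. Its log2 fold change was -0.76 (standard error 0.257, 95% interval -1.35 to -0.17, edgeR unadjusted p = 0.0177, adjusted p = 1.00), opposite in sign to the median member. It ranged from -0.90 to -0.63 when single libraries were left out.

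The next 4 members were higher in mean in LA-Tg, and 3 of them are described. Rpl35a, mutated in some human families with Diamond-Blackfan anemia, stood at 74.8, 69.5 and 49.2 CPM for WT and at 85.4, 85.3 and 80.3 for LA-Tg (0.38, standard error 0.174), and Rps15, the most highly counted small subunit member per kb, at 240.3 ± 40.9 CPM for WT and 302 ± 28.7 for LA-Tg (0.33, standard error 0.168). Rplp1 of the stalk stood at 375 ± 46.5 CPM for WT and 465 ± 53.1 for LA-Tg (0.31, standard error 0.159). Rpl35a and Rps15 did not overlap between the groups, Rplp1 did, and WT replicate 3 was the lowest of the 9 libraries for Rpl35a, Rps15 and Rplp1.

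In Prog-Tg versus LA-Tg ECs, the comparison of mutant with wildtype lamin A minigene, the median log2 fold change of the members was -0.08 (0.00 over all genes), with 26 of 80 above 0. It was 0.02 without LA-Tg replicate 3 and -0.02 without Prog-Tg replicate 3. edgeR called 0 members and 0% of all genes, and DESeq2 and limma-voom 0 members. At an unadjusted p under 0.05, 1 member was higher (1.25%, background 0.665%) and 0 were lower (background 1.05%). With the replicate number as a block, the count was 3. DESeq2 gave 2 and limma-voom 1, and the count was 0 without LA-Tg replicate 1 and without Prog-Tg replicate 3. Groups did not overlap for 2 higher members (background 2.76%), Rpl10a among them, and for 2 lower members (background 3.14%), Rpl35a and Rps25.

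Rpl10a was the member with the smallest p in this comparison (log2 fold change 0.40, standard error 0.151, edgeR unadjusted p = 0.0283, adjusted p = 1.00). Its Prog-Tg mean of 26 ± 2.32 CPM stood against 19.7 ± 1.12 for LA-Tg and 20.7 ± 2.72 for WT. Rpl39, a small protein of the exit tunnel (-0.49, standard error 0.313), was lower in mean and Rpl34 higher (0.41, standard error 0.256), and the groups overlapped for both.

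**Figure D5:**
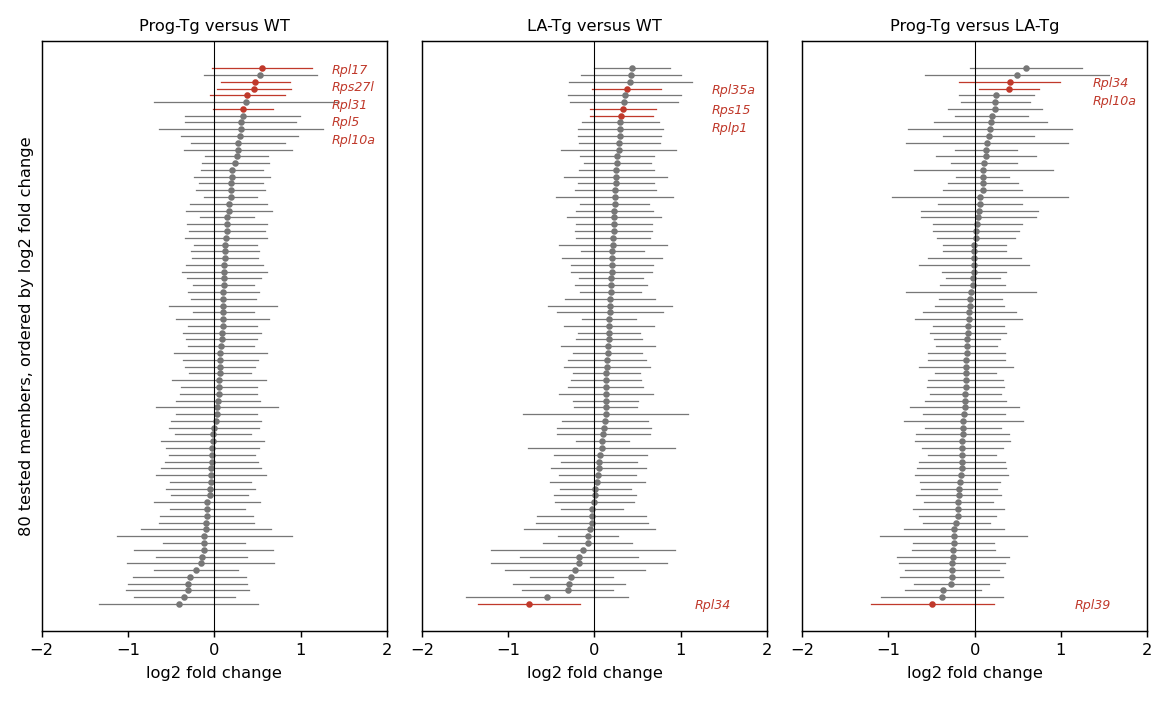
Log2 fold changes (edgeR) of the 80 tested members in each comparison, ordered by value, with 95% intervals as lines; members in red with their symbols are among the 5 with the smallest unadjusted p in that comparison. The median was 0.09, 0.17 and -0.08 from left to right, and 0 members passed an adjusted p under 0.05.

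The proteins of the stalk and of p53 signaling were followed irrespective of their p. Rplp0, on which the stalk is built, stood at 383 ± 34.7 CPM for WT, 431 ± 31.4 for LA-Tg and 424 ± 15.7 for Prog-Tg. Rplp2, the dimer partner of Rplp1, stood at 136 ± 12.8, 151 ± 35.7 and 145 ± 8.4 CPM in the same order. The values of each gene overlapped between WT and Prog-Tg, except Rplp1, whose lowest Prog-Tg library (418 CPM) exceeded the highest WT library (409 CPM). Rpl11, the partner of Rpl5 in binding Mdm2, stood at 9.8 ± 1.27, 9.86 ± 1.91 and 9.04 ± 0.261 CPM. Rpl23, another Mdm2 binder, stood at 121 ± 19.6, 142 ± 9.02 and 125 ± 28.7 CPM, and Rpl26, which can bind p53 mRNA, at 166 ± 28.5, 180 ± 47.8 and 164 ± 27.6 CPM. Hence of these binders only Rpl5 had all Prog-Tg libraries above all WT libraries, a difference that did not pass the adjusted test. For both Rpl5 and Rpl11, 0% of the coding windows were found nowhere else. The part of reads from other copies in this contrast was not tested.

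Several members with further known roles overlapped between WT and Prog-Tg. Rps6, the substrate of S6 kinase, stood at 1.71 ± 0.394 CPM for WT, 2.02 ± 0.212 for LA-Tg and 2.1 ± 0.231 for Prog-Tg. Rps3, which also acts in DNA repair, stood at 901 ± 125, 1047 ± 111 and 974 ± 115 CPM. Rps19 and Rps14, whose loss causes Diamond-Blackfan anemia and contributes to the anemia of 5q deletion in humans, stood at 82.1 ± 12.2 and 312 ± 47.6 CPM for WT and at 77.6 ± 11.1 and 293 ± 64.9 for Prog-Tg. The WT and Prog-Tg values overlapped for each of these 4 genes.

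Rpl13a, which can leave the ribosome to silence inflammatory mRNAs in interferon-treated human monocytes, stood at 101 ± 16.1 CPM for WT, 116 ± 11.5 for LA-Tg and 116 ± 14.3 for Prog-Tg. Of its exon bases, 35.4% are shared with other genes on the same strand. Rpsa, also described as a laminin receptor, stood at 21.4 ± 2.54, 23.3 ± 6.48 and 21 ± 1.07 CPM. WT and Prog-Tg overlapped for both genes. Rps27a, made as a fusion with ubiquitin, stood at 5.4 ± 0.864, 4.61 ± 1.6 and 4.96 ± 1.66 CPM. Rpl41, the shortest of the ribosomal proteins, stood at 81.2 ± 15.1, 99.9 ± 2.6 and 93.6 ± 20.3 CPM, and its LA-Tg libraries all exceeded the WT libraries. Rpl38 was at the other end of the range, at 0.64, 0.577 and 0.678 CPM for WT, 0.285, 0.522 and 0.5 for LA-Tg and 0.329, 0.491 and 0.578 for Prog-Tg. Its LA-Tg libraries all lay below the WT libraries, but on 11, 9 and 10 counts against 21, 12 and 13 (edgeR unadjusted p = 0.212). Of its coding windows, 0% were found nowhere else.

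Several members have a paralog that replaces them in particular tissues. Rpl3l, the form of Rpl3 in heart and skeletal muscle, had 6 counts in the 9 libraries together, while Rpl3 stood at 74.9 ± 12.5 CPM for WT and 80.6 ± 11.4 for Prog-Tg. Rpl10l, the testis form of Rpl10, had 0 counts in every library, and Rpl39l, expressed mostly in testis, had 35 counts in total. A count of 0 allows up to 3 counts per library. Of the coding windows, 100% were found nowhere else for Rpl3l and Rpl39l and 87.6% for Rpl10l. Rpl10 itself, an X-linked protein at the center of the large subunit, stood at 14.9 ± 2.85 CPM for WT, 14.1 ± 2.71 for LA-Tg and 14.4 ± 2.22 for Prog-Tg.

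Rpl39 and Rpl39l illustrate the pair. Their coding sequences of 156 bases were 85.3% identical, with 23 differing bases (in capitals) and a longest identical run of 38 bases.
Rpl39: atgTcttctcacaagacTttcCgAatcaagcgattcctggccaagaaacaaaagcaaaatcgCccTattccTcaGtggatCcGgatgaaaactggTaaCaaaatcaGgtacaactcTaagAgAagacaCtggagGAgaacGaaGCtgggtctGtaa
Rpl39l: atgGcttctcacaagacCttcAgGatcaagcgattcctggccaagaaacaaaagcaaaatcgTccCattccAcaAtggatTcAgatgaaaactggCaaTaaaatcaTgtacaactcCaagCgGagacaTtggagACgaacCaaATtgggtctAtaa
Rpl39 stood at 275, 339 and 160.2 CPM for WT, 356, 205 and 316 for LA-Tg and 250.2, 207 and 168 for Prog-Tg. Its libraries differed up to 2.22-fold and the genotypes overlapped.

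Other paralog pairs were expressed together. Rpl22, an RNA-binding large subunit protein, stood at 223 ± 56.2 CPM for WT, 272 ± 3.38 for LA-Tg and 229.8 ± 39.7 for Prog-Tg, and its paralog Rpl22l1 at 43.8 ± 14.1, 58.4 ± 9.43 and 44.9 ± 14 CPM. In both, WT replicate 3 was the lowest library (158 and 27.5 CPM). Rpl7l1, a paralog of Rpl7 that acts in ribosome assembly, was among the steadier members at 102 ± 13.6, 109 ± 5.67 and 116 ± 10.1 CPM. Rps4x, the X-linked form of Rps4, stood at 109.9 ± 21.5, 131 ± 16.7 and 109 ± 17.5 CPM. Rps4l, annotated as a transcribed processed pseudogene, had the widest range of all tested members, from 5.13 CPM in Prog-Tg replicate 2 to 16.4 CPM in LA-Tg replicate 3, a ratio of 3.2. Rpl24 followed with a ratio of 3.02, with Prog-Tg replicate 1 at 2.36 CPM against 0.782 to 1.22 in the others, and Rpl29 with 2.55 between 9.35 and 23.9 CPM. Of the exon bases of Rpl24, 47% are shared with another gene on the same strand.

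The members not tested were 8: Rps29, Rpl3l, Rpl39l, Rpl10l, Rpl6l, Rps12l1, Rps3a2 and Rps3a3. Rps29, a small subunit protein with no unique coding window, had 97 counts in total, and the others had at most 38.

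The machinery that builds ribosomes was counted beside the ribosomal proteins. Ribosome biogenesis factors, which act in the nucleolus on pre-rRNA and assembling subunits, had higher mean levels in Prog-Tg than in WT for 85 of 95 tested genes, with a median log2 fold change of 0.21. Of them, 10 (10.5%) had an unadjusted p under 0.05 in the higher direction, against 1.23% of all genes, and 0 in the lower direction. Groups did not overlap for 28 of them (29.5%, background 6.56%), all higher, and 0 passed the adjusted test. Nolc1, a chaperone of small nucleolar ribonucleoproteins, stood at 67 ± 6.08 CPM for WT, 68.9 ± 4.97 for LA-Tg and 87.4 ± 9.47 for Prog-Tg (0.38, standard error 0.129, edgeR unadjusted p = 0.0172, adjusted p = 0.83), and Nhp2, a core protein of box H/ACA particles, at 48 ± 5.08, 57.3 ± 7.58 and 64.8 ± 5.72 CPM (0.43, standard error 0.147). In LA-Tg versus WT 61 of 95 were above 0 with a median of 0.04, and in Prog-Tg versus LA-Tg 85 of 95 with a median of 0.16, a comparison that shares the Prog-Tg libraries with the first. The count of 85 in Prog-Tg versus WT was 80 to 85 when single libraries were left out. This list, like those below, was chosen with earlier results of these data known, so its counts are a description only. The ribosomal proteins, by contrast, had 53 of 80 above 0 and a median of 0.09 in Prog-Tg versus WT; the difference between the lists was not tested.

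Several other lists of the same machinery, given in this paragraph, held 0 genes at the unadjusted limit in Prog-Tg versus WT. Of 37 translation factors 32 were above 0 (median 0.14), and groups did not overlap for 11 of them (29.7%, background 6.56%), all higher. In LA-Tg versus WT, which shares the WT libraries, 33 of 37 were above 0, with a median of 0.15. They include Eef1d, an exchange factor of elongation, at 89.8 ± 1.53 CPM for WT and 109 ± 10.1 for Prog-Tg, and Eif1a, an initiation factor, at 114 ± 28 and 198 ± 36.5 CPM. Of 15 tested snoRNA host genes, many of which carry TOP tracts themselves, 13 were above 0 (median 0.25) and groups did not overlap for 4 (26.7%, background 6.56%), all higher, with Snhg1 at 51.4 ± 8.08 CPM for WT and 64.6 ± 3.36 for Prog-Tg and Snhg15 at 15.9 ± 4.35 and 23.5 ± 4.56 CPM. All 4 ribosomal protein genes outside the symbol rule, Fau, Rack1 and Rpl36al among them, were above 0, and neither Fau (1.14 ± 0.186 against 1.61 ± 0.353 CPM) nor Rpl36al (4.52 ± 0.712 against 5.51 ± 0.0498 CPM) passed the unadjusted limit. The 77 tested mitochondrial ribosomal proteins had a median of 0.08, with 54 above 0, and groups did not overlap for 7 (9.09%, background 6.56%), all higher. In LA-Tg versus WT 61 of the 77 were above 0 (median 0.10), and groups did not overlap for 7 (9.09%, background 1.92%), all higher. There, 11 of the 15 snoRNA host genes (median 0.14) and all 4 genes outside the symbol rule were also above 0.

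The medians of the regulator lists lay near 0. RNA polymerase I and its factors, which transcribe the rRNA, had a median of -0.04 in Prog-Tg versus WT with 6 of 15 above 0, among them the subunits Polr1e (11.5 ± 2.69 against 18.3 ± 2.3 CPM, the 1 gene of 15 at an unadjusted p under 0.05, 6.67% against 1.23% of all genes in the higher direction) and Polr1c (34.6 ± 8.34 against 44.6 ± 4.86 CPM). The mTOR pathway and regulators of TOP mRNAs had a median of -0.01 with 15 of 31 above 0 and 0 at that limit. Sesn1, a p53-induced inhibitor of mTOR signaling, stood at 27.7 ± 16.7 and 13.9 ± 4.12 CPM, and Eif4ebp2, a repressor of initiation, at 144 ± 26 and 106 ± 20.4 CPM. Transcription factors linked to ribosomal protein genes had a median of 0.01, with 1 of 17 lower at the unadjusted limit (5.88%, against 2.17% of all genes; Mxd1, a Myc antagonist, 23 ± 5.51 against 14.8 ± 2.67 CPM). Mycl, a Myc paralog, stood at 0.426 ± 0.359 CPM for WT and 2.27 ± 2.03 for Prog-Tg.

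A list of p53 regulators and targets had 11 of 12 tested genes above 0 in Prog-Tg versus WT, with a median log2 fold change of 0.56. Of them, 3 (25%, against 1.23% of all genes) were higher at an unadjusted p under 0.05 and 0 passed the adjusted test. Gtse1, a cell cycle gene that restrains p53, stood at 36.6 ± 10.5 CPM for WT, 45.5 ± 25 for LA-Tg and 77.5 ± 16.2 for Prog-Tg (1.08, standard error 0.388, edgeR unadjusted p = 0.0227, adjusted p = 0.83). Ccng1, a p53 target, stood at 213 ± 75.4, 274 ± 137 and 410 ± 51.8 CPM (0.94, standard error 0.379). The third gene was Mdm2, the ubiquitin ligase that binds free Rpl5 and Rpl11 (1.02, standard error 0.427), which was named after its values were seen. The lower lymphatic marker levels in the Prog-Tg libraries stand beside these differences and those of the biogenesis factors, and their part was not tested. In LA-Tg versus WT 9 of the 12 were above 0, with a median of 0.10 and 0 genes at that limit.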

How the data were processed

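The authors aligned poly(A) reads to GRCm38 with STAR 2.5.1b, counted them per gene with HTSeq 0.5.4p3 and deposited raw counts, which were used here unchanged in 1 table of 9 libraries grouped by the genotype in their labels. The study calls the 3 libraries of a genotype biological replicates and states for its EC experiments in general that primary cells came from different littermate pairs. The labels do not tie a library to an animal. Members, lists and the rule for named genes were chosen with earlier results of these data known. Named were the 3 highest and 3 lowest tested members per kb, the 5 with the smallest p in each comparison, those with the 3 widest ranges, members with separate known roles, and 2 genes per pathway list.

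In R 4.3.3, edgeR 4.0.16 fitted all 9 libraries by genotype after filterByExpr (minimum count 10, minimum total 15) and TMM scaling. The two-sided quasi-likelihood F test was adjusted by Benjamini and Hochberg over 14584 genes. The standard error of a log2 fold change was taken as its size over the square root of F. Fits were tested on simulated data. Log2 CPM used a prior count of 2. Exons and coding sequences came from GENCODE M21 (GRCm38), a release other than the one the study's methods name, so exon lengths behind CPM per kb may differ from the gene models that were counted, start regions and the genome from RefSeq GRCm38.p6. Alternatives were DESeq2 1.42.0, limma-voom (limma 3.58.1), other scalings and filters, a replicate block, and each library left out. Replicate pairs had chi-square values of 89.3 to 299 per gene and were counted as separate libraries. Deviations of same-numbered libraries from their genotype means correlated at 0.67, 0.63 and 0.35 between Prog-Tg and LA-Tg. All were over 0.1, the limit set for pairing, but this rests on the values alone, and the reported tests did not pair the libraries. Over the members alone the correlations were 0.21, -0.20 and 0.01. The block was an alternative and not part of the fit reported. Counting intervals and floors cover counting error only. The small RNA tables and the tables of the authors' own comparisons (group means, fold changes and p-values) were not used. A few genes that these rules name are not reported here.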

Additional observations from a re-analysis of the deposited data

How the results depend on the processing

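No member was called at an adjusted p under 0.05 under any of the 18 alternatives of a comparison, and the lowest adjusted p of a named member was 0.59 in Prog-Tg versus WT, 0.97 in LA-Tg versus WT and 0.43 in Prog-Tg versus LA-Tg. Members at an unadjusted p under 0.05 numbered 2 in Prog-Tg versus WT, 1 in LA-Tg versus WT and 1 in Prog-Tg versus LA-Tg. With DESeq2 they numbered 4, 2 and 2, and with the replicate block 4, 4 and 3. In Prog-Tg versus WT the count was 1 with library size alone, with no filter and with only the 2 groups compared. Leaving out single libraries gave 0 to 3 members in Prog-Tg versus WT, 0 to 3 in LA-Tg versus WT and 0 to 1 in Prog-Tg versus LA-Tg. The cause of these shifts was not tested.

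The median log2 fold change of the members ranged from -0.02 to 0.16 in Prog-Tg versus WT, 0.05 to 0.24 in LA-Tg versus WT and -0.12 to 0.02 in Prog-Tg versus LA-Tg when single libraries were left out, and from 0.06 to 0.12, 0.13 to 0.23 and -0.10 to -0.07 under the others. These include the counts of rows with pseudogene symbols added to the members (0.08, 0.17 and -0.09). They also include, chosen after seeing the data, the members with over 50% of coding windows unique (0.12, 0.23 and -0.10). Without each library in turn the mean share of WT was 0.893% to 1.04%, that of LA-Tg 0.983% to 1.15% and that of Prog-Tg 0.952% to 1.02%. The 5 members with the smallest p kept their direction in each comparison under every alternative. They were picked by p in the same libraries that the alternatives reuse, so this is no independent support. The same holds for the ranges given above for Rps27l and Rpl34 with single libraries left out. Of 38 named members, 16, 14 and 17 changed sign under at least 1 alternative in the 3 comparisons. Over all genes, the values meet the limit for pairing only in Prog-Tg versus LA-Tg, where 6 of 6 libraries correlated best with their own number (4 of 6 for Prog-Tg with WT and 2 of 6 for LA-Tg with WT). Precision is limited by 3 libraries per genotype and, for 13 members, by levels under 5 CPM.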
